A study of Homo sapiens with 6 samples.

Results

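The HER2 receptor family and its adaptor GRB7 were examined in JIMT-1 cells, an established human HER2+ breast cancer line derived from a tumor that had become resistant to trastuzumab. The rows were chosen by name, as EGFR, ERBB2, GRB7 and any further row whose symbol starts with ERBB, and the last criterion added ERBB4. This gave 4 genes of the 758 in the deposited table. ERBB3 has no row in the table and so was not analysed here. The CTL group (3 samples) received PBS, the aCT1 group (3 samples) received the peptide aCT1 at 250 µM, both for 24 h, and RNA was counted with the nCounter Breast Cancer 360 panel. Cx43 is a gap junction protein, and aCT1 is a mimic of its tail end, made able to enter cells by an added antennapedia sequence. Since CTL cells received PBS and no other peptide, effects of the Cx43 part and of the entry sequence cannot be told apart. All samples come from this single line.

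The HER receptors are receptor tyrosine kinases that pair with each other at the cell membrane when a ligand binds. ERBB2 (HER2) has no known ligand of its own and acts as the partner of the other receptors. Extra copies of its gene on chromosome 17 are common in HER2+ breast cancer. GRB7 is an SH2 adaptor that docks on phosphorylated ERBB2, and its gene lies so close to ERBB2 that tumors usually amplify them together. In the RefSeq annotation (GRCh38.p14), MIEN1 is the only protein-coding gene between ERBB2 and GRB7, and 0 rows of the table lie between them. EGFR lies on chromosome 7 and ERBB4 on chromosome 2.

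The normalized counts of a sample were whole multiples of 1 step, of 0.979 to 1.02, from which barcode counts were inferred. Since the steps lie close to 1, these counts, and the counting errors that rest on them, are estimates. Inferred totals per sample were 1437572 to 1494919 counts. The labelled line fit its markers. ERBB2 and GRB7 were among the highest rows, and the epithelial genes CDH1 (E-cadherin), KRT7, CLDN4 and CLDN7 had means of 731 to 7732 normalized counts. The hormone receptors ESR1 and PGR had means of 124 and 21.4. Of 12 listed leukocyte markers the table held 5, with means of 6.46 to 47.6, and of 9 fibroblast and endothelial markers it held 5, with means of 12.8 to 67.1. Summed per sample, the leukocyte rows gave 141 to 165 normalized counts in CTL and 130 to 161 in aCT1. The fibroblast and endothelial rows gave 144 to 149 in CTL and 125 to 136 in aCT1, with no overlap. The 4 epithelial genes summed to 18008 to 18702 in CTL and 18714 to 19669 in aCT1, also with no overlap but in the other direction. Of these KRT7, a keratin, had a log2 change of 0.12 (standard error 0.028, limma adjusted p = 0.189) and groups that did not overlap, and the groups of the other epithelial genes overlapped. Among single rows of the whole table, groups did not overlap in 14.2%, and among the fibroblast and endothelial rows in 0. Whether the shifts of these sums and of KRT7 bear on the members was not tested. The labels do not say whether samples were separate cultures, so p-values measure the spread between these samples, which may be technical.

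ERBB2, GRB7 and EGFR were strongly expressed with and without aCT1, and ERBB4 was near the bottom of the table. No member differed between aCT1 and CTL beyond the spread between samples. The largest log2 change among the 3 well counted members was 0.037, for GRB7. Levels of different genes are compared here as counts, since probes can differ in efficiency and the order of counts need not be the order of molecules.

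**Figure D1:**
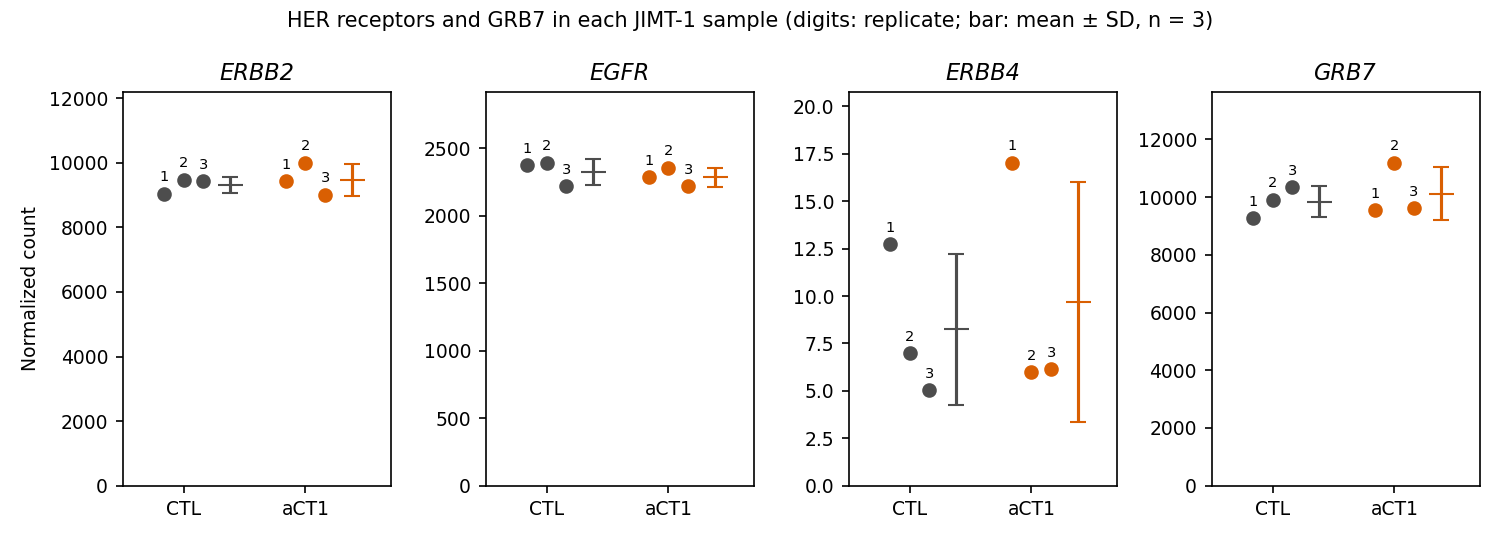
Normalized count (linear axis from 0) of ERBB2, EGFR, ERBB4 and GRB7 in each sample, with CTL in grey and aCT1 in orange, the replicate number above each point, and the group mean ± SD (n = 3) at the side. The groups overlap in all 4 genes, and ERBB4 stays between 5.03 and 17.0.

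ERBB2, the receptor that gives HER2+ tumors their name, had 9042, 9481 and 9427 normalized counts in CTL replicates 1 to 3 and 9430, 9997 and 9014 in aCT1 replicates 1 to 3. The aCT1 samples held both the highest value, replicate 2, and the lowest, replicate 3, so the CTL values lay inside the aCT1 range. The group means were 9316 ± 239 (SD, n = 3) in CTL and 9480 ± 493 (SD, n = 3) in aCT1. The log2 change, aCT1 minus CTL, was 0.024 (standard error 0.036, limma adjusted p = 0.965), with a 95% interval of -0.053 to 0.10. In linear terms the interval runs from -3.58% to 7.25%. An exact permutation test of the 6 values gave p = 0.8 (two-sided), where the smallest p that 3 against 3 allows is 0.1.

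EGFR, the receptor for EGF and amphiregulin, had 2375, 2392 and 2218 normalized counts in the CTL samples and 2287, 2357 and 2218 in the aCT1 samples. Replicate 3 was the lowest of its group in both groups, and the groups overlapped. Means were 2328 ± 96.0 (SD, n = 3) in CTL and 2287 ± 69.5 (SD, n = 3) in aCT1. The log2 change was -0.025 (standard error 0.038, limma adjusted p = 0.965, 95% interval -0.11 to 0.057). The exact permutation p was 0.5.

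GRB7, the adaptor, had 9278, 9918 and 10350 normalized counts in the CTL samples and 9551, 11185 and 9625 in the aCT1 samples. Replicate 2 of aCT1 was the highest of all 6 samples, the other two aCT1 values were below the CTL mean, and the groups overlapped. Means were 9849 ± 539 (SD, n = 3) in CTL and 10121 ± 923 (SD, n = 3) in aCT1. The log2 change was 0.037 (standard error 0.053, limma adjusted p = 0.965, 95% interval -0.078 to 0.15), and the exact permutation p was 0.8. Without aCT1 replicate 2 the log2 change was -0.037, and without CTL replicate 1 it was -0.0055. The moderated fit borrows the smaller spread of other rows at this level. From its own spread alone, the 95% interval of GRB7 was -0.21 to 0.28, that of ERBB2 -0.11 to 0.16 and that of EGFR -0.14 to 0.094.

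ERBB4, a receptor for neuregulins, had 12.7, 6.98 and 5.03 normalized counts in the CTL samples and 17.0, 5.98 and 6.13 in the aCT1 samples. These values correspond to an inferred 5 to 17 barcodes. Replicate 1 of each group was the high sample, and the groups overlapped. Only 20 of the 758 rows had a lower mean, and the ERBB4 mean of 8.98 was within the range of the 5 leukocyte markers, from 6.46 for CD163 to 47.6 for CD68. The log2 change was 0.16 with a standard error of 0.48 (limma adjusted p = 0.965), and the 95% interval of -0.88 to 1.20 reaches up to a level 2.30-fold higher in aCT1. From its own spread alone the log2 interval was -1.60 to 1.92. The log2 change was -0.34 without aCT1 replicate 1 and -0.14 without CTL replicate 3.

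In the whole table, limma's unadjusted p was under 0.05 for 71 of 758 rows (9.37%), with 49 (6.46%) higher in aCT1 and 22 (2.9%) lower. The adjusted p was under 0.05 for 0 rows (0%), the smallest being 0.0989. Of the 4 members, 0 had an unadjusted p under 0.05, with p-values of 0.502 to 0.743 in limma. The groups did not overlap in 108 rows (14.2%), 71 higher (9.37%) and 37 lower (4.88%) in aCT1, and in 0 of the 4 members. The median absolute log2 change was 0.046 among the 433 rows with a mean of at least 50, and the absolute log2 changes of ERBB2, EGFR and GRB7 were below it. Centring each sample on its median shifted every log2 change by -0.098. ERBB2 was then at -0.074, EGFR at -0.12 and GRB7 at -0.061, and limma's unadjusted p for EGFR was 0.0502 (adjusted p = 0.401).

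**Figure D2:**
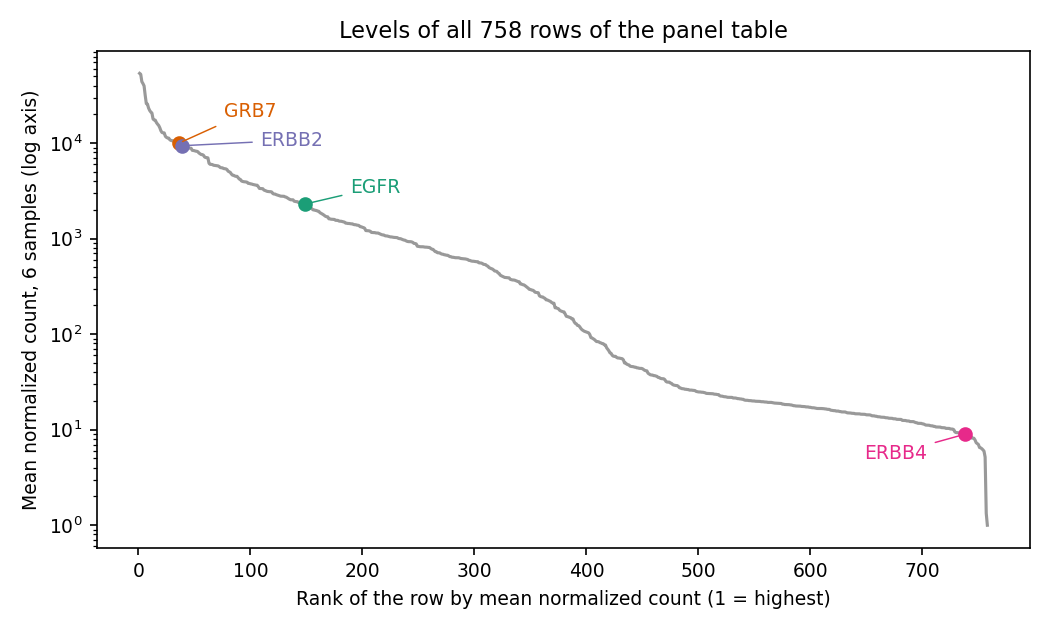
Mean normalized count over the 6 samples (log axis) of all 758 rows against their rank, with the 4 members marked. GRB7 and ERBB2 stand at ranks 36 and 39, EGFR at 149 and ERBB4 at 738.

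GRB7 had the highest counts of the members, followed by ERBB2, EGFR and ERBB4. GRB7 ranked 36 of 758 rows by mean, between 27 and 38 in single samples. ERBB2 ranked 39, between 37 and 42, next below CAV1 (mean 9646) and above PPP2R1A (a phosphatase scaffold, mean 9230). EGFR ranked 149, between 145 and 150, beside the mitotic motor KIF11 (2314) and the repair gene XRCC2 (2271). SKP2, a ubiquitin ligase subunit with a mean of 10074, stood just above GRB7, and the kinesin KIF23 (9653) just below. TSPAN7 (9.01) and ENPP2 (8.83) were next to ERBB4. Each of these neighbours overlapped its member in range over the 6 samples. ERBB2 and GRB7 overlapped in range too, although GRB7 was the higher of them within each of the 6 samples, by 1.01-fold to 1.12-fold.

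A ratio of 2 probes within a sample is free of the sample's scaling factor. ERBB2 over EGFR ranged from 3.81-fold to 4.25-fold in single samples. On the log2 scale this ratio differed between groups by 0.050, less than its spread within groups of 0.061 (SD). GRB7 over ERBB2 was 1.06-fold in CTL and 1.07-fold in aCT1, a log2 difference of 0.013 against a spread of 0.062 (SD). GRB7 over EGFR was 4.23-fold in CTL and 4.41-fold in aCT1, a log2 difference of 0.062 against a spread of 0.11 (SD). The log2 ratio of ERBB4 to ERBB2 differed by 0.14, against a spread of 0.80 (SD). The exact permutation p-values of these 4 ratios were 0.5, 0.8, 0.5 and 0.7, each 0.8 after Benjamini-Hochberg adjustment over the 4.

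**Figure D3:**
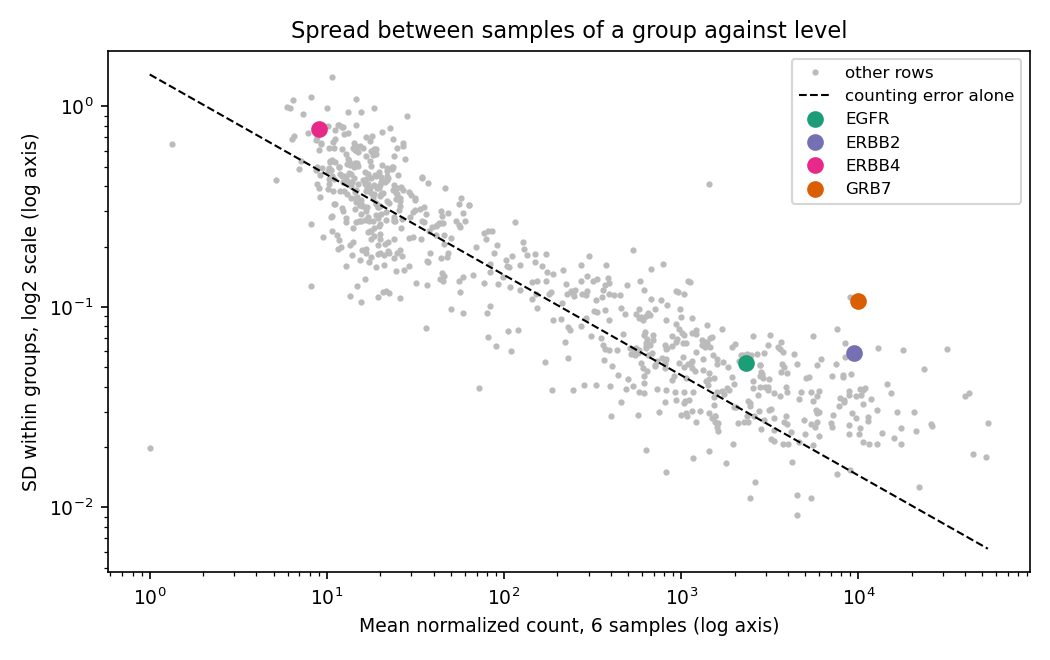
Pooled SD within groups on the log2 scale (log axis) against mean normalized count (log axis) for all 758 rows, with the members coloured and a dashed line for the SD that counting alone gives. GRB7, at 0.11, and ERBB2, at 0.059, lie well above the dashed line, and EGFR, at 0.053, lies nearer to it.

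GRB7 varied between samples of a group more than most rows of its level. Counting alone gives GRB7 an SD of 0.014 on the log2 scale, and its SD within groups was 0.11, or 7.39 times as large. Among the 50 rows nearest to it in level, only 1 had a larger SD, and their median was 0.034. For ERBB2 the SD within groups was 0.059 against 0.015 from counting, and 4 of its 50 nearest rows had a larger SD. For EGFR it was 0.053 against 0.030, with 14 of 50 rows larger. The SD of ERBB4 was 0.78, against 0.53 from counting. These SDs describe 3 samples a group and were not tested.

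**Figure D4:**
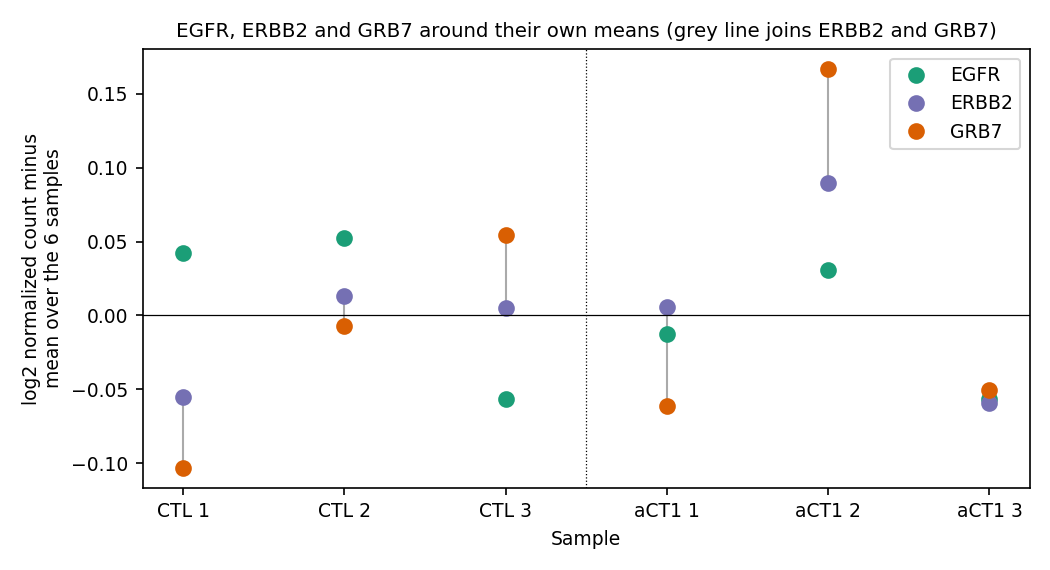
EGFR, ERBB2 and GRB7 in each sample as log2 normalized count minus the gene's mean over the 6 samples, with a grey line joining ERBB2 and GRB7 and a dotted line between CTL and aCT1. ERBB2 and GRB7 are both highest in aCT1 replicate 2, at 0.090 and 0.17, where EGFR is at 0.031.

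The deviations of ERBB2 and GRB7 correlated across the 6 samples before adjustment. Of single samples left out, aCT1 replicate 2 lowered the correlation most. Both were highest in aCT1 replicate 2 and low in CTL replicate 1, where ERBB2 was 0.055 and GRB7 0.10 below its mean (centred log2 values of -0.055 and -0.10). ERBB2 was lowest in aCT1 replicate 3, at -0.059, where GRB7 was at -0.050. In aCT1 replicate 1 (ERBB2 0.0057, GRB7 -0.061) and CTL replicate 2 (ERBB2 0.013, GRB7 -0.0068) their signs were opposite. Over the 6 samples Pearson's r was 0.88 (exact permutation p = 0.0278) and Spearman's rho was 0.60 (exact permutation p = 0.242). After adjustment over the 3 pairs among ERBB2, GRB7 and EGFR, these p-values were 0.0833 and 0.446, so the relation did not pass the correction. Without aCT1 replicates 2 and 3, which were farthest from the ERBB2 median, r was 0.71 over 4 samples (exact permutation p = 0.417). Without aCT1 replicate 2 alone it was 0.64 (exact permutation p = 0.267), and without any other single sample 0.84 to 0.94 (exact permutation p = 0.0333 to 0.1). With values centred within each group r was 0.88. No p-value is given for it, since values centred by group are not freely exchangeable between groups. With each sample centred on its median, r was 0.70 (exact permutation p = 0.118). By r, GRB7 was number 16 of the 432 other rows with a mean of at least 50 when ordered by likeness to ERBB2, for which the median r was 0.22.

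For EGFR no such relation was detected, and the difference between the pairs was not tested. Its r was 0.31 with ERBB2 (exact permutation p = 0.551, adjusted p = 0.827) and 0.041 with GRB7 (exact permutation p = 0.949, adjusted p = 0.949). Spearman's rho was 0.54 (exact permutation p = 0.297, adjusted p = 0.446) and -0.086 (exact permutation p = 0.919, adjusted p = 0.919). Without aCT1 replicates 2 and 3, the 2 samples farthest from the ERBB2 median, r with ERBB2 was -0.37. Without CTL replicate 3 and aCT1 replicate 3, the 2 farthest from the EGFR median, r with GRB7 was 0.13.

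Rows with a mean of at least 50 were also ordered by the root mean square difference of their centred log2 values from each member over the 6 samples. The closest to ERBB2 were PSAT1, an enzyme of serine synthesis, with a difference of 0.014, the claudin CLDN4 with 0.021 and BAD, a BCL2 family gene, with 0.021, where the median over 432 rows was 0.070. The closest to EGFR were the exonuclease EXO1 with 0.021, the HGF receptor MET with 0.022 and FHL1 with 0.022. For GRB7 they included ANXA9 with 0.030 and INHBB with 0.032, while ERBB2 stood at place 17 with 0.051. In the order for ERBB2, GRB7 stood only at place 90 of 432 rows, at the same difference of 0.051. ERBB4, with so few counts, had no close row, and the least difference was 0.48, from APH1B.

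**Figure D5:**
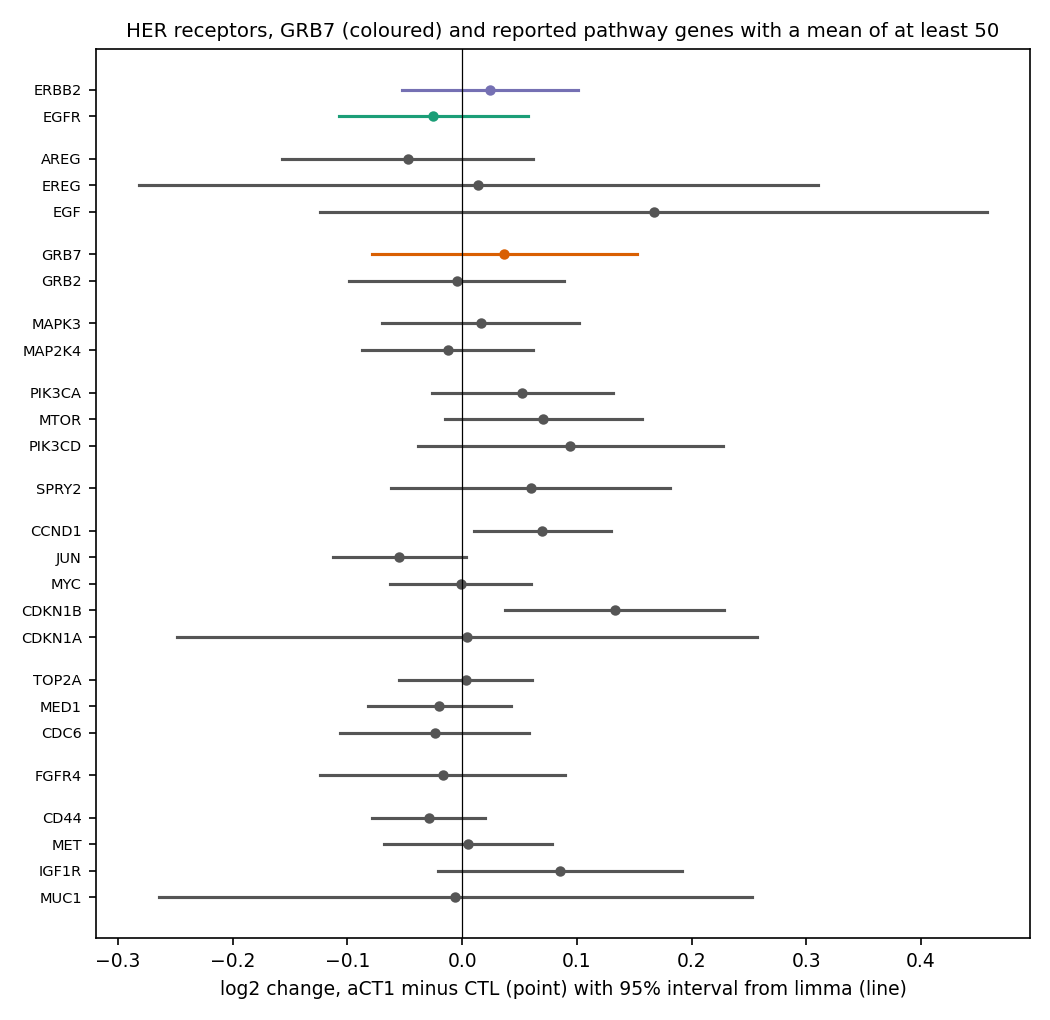
log2 change, aCT1 minus CTL, with its 95% interval from limma for ERBB2, EGFR and GRB7 (coloured) and for the pathway genes reported here with a mean of at least 50 (grey), grouped by role from receptors at the top to partner proteins at the bottom. The intervals of CDKN1B and CCND1 are the ones that do not reach 0, before adjustment.

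On chromosome 17, the rows around ERBB2 and GRB7 were MED1 on one side and IKZF3, CDC6 and TOP2A on the other. MED1, a Mediator subunit, had a mean of 7885 normalized counts and a log2 change of -0.020. IKZF3, a lymphoid transcription factor and the nearest row beyond GRB7, had a mean of 28.5 and a log2 change of -0.13 (standard error 0.46). Its count was thus within the range of the leukocyte markers although the gene lies next to GRB7. CDC6, which licenses replication origins, had 3736 and -0.024, and TOP2A, the mitotic topoisomerase, had 12805 and 0.0032. Of 25 genes listed for this neighbourhood the table held 6, ERBB2 and GRB7 included. None of the 6 had an unadjusted p under 0.05 in limma, beside 9.37% of the whole table. Gene copy number was not measured.

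Of 11 HER ligands listed, the table held 3. Amphiregulin (AREG), an EGFR ligand, was the most abundant, at 613 normalized counts, with a log2 change of -0.047 (standard error 0.051). EGF had a mean of 83.7 and a log2 change of 0.17 (standard error 0.13). Epiregulin (EREG), which binds EGFR and ERBB4, had 103 and 0.014. All 3 had overlapping groups, and the smallest limma adjusted p was 0.781.

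Of 16 adaptors and docking proteins listed, the table held GRB7, GRB2, which links receptors to RAS activation, and SHC2. GRB2 had 2553 normalized counts and a log2 change of -0.0046, and SHC2 had 15.5 and 0.10. Of the kinase cascade below RAS, MAPK3 (2246) and MAP2K4 (1611), which acts on the JNK branch, had log2 changes of 0.016 and -0.013. Their groups overlapped.

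The PI3K-AKT list held 12 rows, 9 higher and 3 lower in aCT1. In the whole table most rows were higher too, 446 of 758. The median log2 change of the 12 rows was 0.031, beside 0.018 for all 758 rows. None of the 12 reached an unadjusted limma p under 0.05, beside 9.37% of the whole table. The groups of 2 of the 12 (MTOR and PIK3CA) did not overlap, both higher in aCT1, beside 14.2% of the whole table. The smallest p-values belonged to the kinase MTOR with a log2 change of 0.071 (limma adjusted p = 0.619), PIK3CD with 0.094 (limma adjusted p = 0.704) and PIK3CA with 0.053 (limma adjusted p = 0.724). Negative regulators of the pathway numbered 7, with 5 higher and 2 lower. Of them 0 had an unadjusted limma p under 0.05, again beside 9.37% of the whole table. Of these SPRY2, SPRY1 and RASAL1 had the smallest p-values, with log2 changes of 0.060, 0.28 and 0.19, and the last 2 had means of 21.2 and 48.6.

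Among 6 target genes, 2 had an unadjusted p under 0.05 in limma, beside 9.37% of the whole table. The groups of 3 (CDKN1B, CCND1 and JUN) did not overlap, beside 14.2% of the whole table. With so few rows, these counts were not tested against the whole table. CDKN1B, the cell cycle inhibitor p27, had 1384 ± 30.9 (SD, n = 3) normalized counts in CTL and 1519 ± 89.0 (SD, n = 3) in aCT1, a log2 change of 0.13 (standard error 0.044, limma adjusted p = 0.307). CCND1, cyclin D1, had a log2 change of 0.070 (standard error 0.028, limma adjusted p = 0.371). JUN had a log2 change of -0.055, at a limma adjusted p of 0.542. MYC (-0.0011), FOS (-0.17) and CDKN1A (0.0039) had overlapping groups.

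The PAM50 subtype classifier uses ERBB2, GRB7, FGFR4 and TMEM45B as genes of its HER2-enriched class. FGFR4 had 833 normalized counts and a log2 change of -0.017. TMEM45B had a mean of only 17.7, a log2 change of 0.62 and groups that did not overlap (limma unadjusted p = 0.0462, adjusted p = 0.508). High ERBB2 and GRB7 counts in this line thus stood beside a TMEM45B count in the range of the leukocyte markers. Of the proteins that partner or mask HER2 at the membrane, the hyaluronan receptor CD44 had 44079 normalized counts, the third highest row of the table, with a log2 change of -0.029 and groups that did not overlap. MET (2784, log2 change 0.0051), IGF1R (710, 0.085) and the mucin MUC1 (149, -0.0059) had overlapping groups.

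Over all these lists without the 4 members, 43 rows were in the table, 26 higher and 17 lower in aCT1, with a median log2 change of 0.0098. Of them 3 (6.98%) had an unadjusted limma p under 0.05, beside 9.37% of the whole table, and 0 had an adjusted p under 0.05. The groups did not overlap in 7 (16.3%), beside 14.2% of the whole table.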

How the data were processed

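RNA of 3 CTL and 3 aCT1 samples of JIMT-1 was counted with nCounter barcodes. With nSolver 4.0 the authors scaled each sample by its housekeeping genes, and they deposited the linear signal (normalized counts) and its log2. Linear values were whole multiples of 1 step per sample, to within 3.00e-05 of a whole number. Since these steps are close to 1, the counts inferred from them were taken as estimates, and no count model was run. Neither a background subtraction nor positive-control scaling is given in the sources used here. Of 758 symbols, 749 matched RefSeq. Samples of a group differed by more than counting noise (chi-square per degree of freedom 1.66 to 3.11).

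Log2 values of all 758 rows were fitted with limma 3.58.1 (R 4.3.3), aCT1 against CTL, with a variance trend, since many rows are near background. P-values were two-sided, with Benjamini-Hochberg adjustment and a threshold of 0.05. Exact permutation tests used Python 3.11.15. Scripts were tested on simulated data.

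Named were the members, the 3 rows most like each, their neighbours in level, and genes of the pathway lists (all of a list with up to 6 rows, otherwise the 3 with the smallest p). Some genes that this rule names are not reported here. Members and lists were chosen with earlier results of these data known. The correlations among members, and their alternatives, were added after the values had been seen.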

Additional observations from a re-analysis of the deposited data

How the results depend on the processing

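Median centring moved all 758 log2 changes alike, by -0.098, so a sign that it turned says nothing particular to a gene. None of the 4 members reached an adjusted p under 0.05 under any alternative run (the smallest was 0.401, EGFR with median centring). EGFR stayed below 0 throughout, from -0.12 to -0.0034. ERBB2 was -0.074 with median centring, and changed sign with quantile normalization (-0.0094) and without aCT1 replicate 2, with leave-one-out values of -0.015 to 0.060. Median centring put GRB7 at -0.061 and quantile normalization at 0.0055, and its sign changed without CTL replicate 1 or aCT1 replicate 2, with leave-one-out values of -0.037 to 0.077. ERBB4 had leave-one-out values of -0.34 to 0.53, below 0 without CTL replicate 3 or aCT1 replicate 1, and gave no value at a mean of at least 50. The log2 ratio of ERBB2 to EGFR was -0.00051 apart between groups with quantile normalization. The leave-one-out difference of GRB7 to ERBB2 was -0.022 to 0.049, below 0 without CTL replicate 1 or aCT1 replicate 2, and that of ERBB4 to ERBB2 -0.36 to 0.53, below 0 without CTL replicate 3 or aCT1 replicate 1.

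Rows of the whole table at an unadjusted p under 0.05 were 71 in limma, and 48 to 93 under the alternatives. Those with an adjusted p under 0.05 were 0, but 6 with quantile normalization, 1 without the variance trend, 1 at a mean of at least 50, 1 with the replicate block, and 0 to 1 on leave-one-out (1 without CTL replicate 3). The 3 listed pathway rows at an unadjusted p under 0.05 became 1 without the variance trend, and 1 to 4 on leave-one-out (1 without CTL replicate 1 and without aCT1 replicate 2). The causes were not tested.

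In the fit with a replicate block, the log2 changes were the same (GRB7 0.037, ERBB2 0.024, EGFR -0.025, ERBB4 0.16) and no member was called. Deviations of same-numbered samples correlated across 433 rows at 0.078, 0.19 and -0.23, so the numbers were not taken to pair the samples. The count models listed as alternatives (edgeR and DESeq2) were not run, since the inferred counts were not certain. The correlation of ERBB2 and GRB7 ranged from 0.64 (without aCT1 replicate 2) to 0.94 on leave-one-out. Counting error limits ERBB4, with an SD of 0.53 from counting alone.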
